A study of Rattus norvegicus with 9 samples.

Results

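The amygdala signal of 34 genes of cholesterol synthesis and sterol transport was set between ovariectomised rats with and without estradiol. The genes were taken by name: a probe belonged to the set if it was no control spot and its gene name in the scanner files equalled one of 34 listed symbols. All 34 symbols were found, on 54 of the 45598 probes of the array, and 51 of these probes were bright enough to be tested. The arrays were 1-colour Agilent rat expression arrays, each carrying Cy3-labelled copies of 200 ng of RNA from 1 rat, whose left and right amygdala were both used. All 9 rats were females of the strain SHR, whose blood pressure rises spontaneously with age, and all lost both ovaries at 4 weeks of age, so there was no group with intact ovaries. After 1 week of recovery, 5 rats (OV+E2) received a minipump under the skin releasing 2 µg of estradiol a day in polyethylene glycol, and 4 rats (OV) received a pump with polyethylene glycol alone. The pumps ran for 1 month and tissue was taken at 9 weeks of age. The amygdala was measured as a whole, so in each value fewer cells of a type and less RNA per cell cannot be told apart. The labels do not say whether rats shared a litter or cage, so the p-values measure the spread between these rats.

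Cholesterol in the brain is made in place, since plasma lipoproteins do not cross the blood-brain barrier, and most of it sits in myelin. Cells build it from acetyl-CoA through mevalonate and squalene, and the SREBP transcription factors raise the enzymes of this route when the membrane sensor complex of Scap and Insig finds little sterol. Astrocytes load cholesterol onto particles with apolipoprotein E through ABC transporters, which the oxysterol-activated LXR receptors control. Neurons take these particles up, and they remove surplus cholesterol by turning it into an oxysterol that can leave the brain.

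Signals are given as log2 of the processed signal minus the 75th percentile of the same array, so that 0 stands for a signal equal to that percentile and each unit for a factor of 2. Differences are OV+E2 minus OV. The array of OV replicate 3 stood apart from the other 8. Its 75th percentile was 129.7 signal units against 556.8 to 737.6, it held 24225 probes well above background against 29052 to 31395, and its mean correlation with the other arrays was 0.932 against 0.981 to 0.984. It was the highest or the lowest of the 9 arrays for the brightest probe of 27 of the 34 genes, as it was for 73.6% of all tested probes. In the authors' deposited value table the column of this rat correlated at 0.938 with its scanner file, and the other columns at 0.9999 or more. The results are therefore given with and without OV replicate 3. The arrays lay on 2 slides, with OV+E2 replicates 1 and 2 and OV replicates 1, 2 and 3 on slide 1, and OV+E2 replicates 3, 4 and 5 and OV replicate 5 on slide 2.

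No gene of the set passed an adjusted p of 0.05 in limma, and neither did any probe of the array, with 0 of 30215 called (0% of tested probes), 3134 at an unadjusted p under 0.05 and a smallest adjusted p of 0.155. The sterol transporter subunit Abcg8 was the gene of the set with the largest difference, lower in OV+E2 by a log2 difference of −0.98 (SE 0.13, n = 5 and 4, adjusted p = 0.197). Enzyme genes Mvk, Mvd and Tm7sf2 were lower by about 0.4 log2 units and the neuronal cholesterol hydroxylase Cyp46a1 was higher by 0.57. At an unadjusted p under 0.05 these were 5 of the 34 genes, or 4 lower and 1 higher, where 10.4% of all 22998 tested genes stood at that level and 7.09% were lower at it. In all, 22 of the 34 genes were lower in OV+E2, against 48.4% of all genes. The median difference of the set was −0.12 and that of all genes 0.01.

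Without OV replicate 3 the median of the set was −0.06 and that of all genes 0.02. Then 23 of the 34 genes were lower, against 46% of all genes. At an unadjusted p under 0.05 there were 7 genes, 6 lower and 1 higher, against 14.2% of all genes. None of the set passed the adjusted threshold, which 1 probe of the array did (0.00331%). The groups did not overlap for 7 of the 34 genes with 9 arrays, against 7.04% of all genes, and for 9 of them without OV replicate 3, against 10.8%. Most differences were small: 25 of the 34 genes lay within 0.3 log2 units of 0, as did 68.2% of all genes, and without OV replicate 3 it was 31 of 34 against 84.2%. With slide as a block 2 of the 34 genes, Abcg8 and Tm7sf2, had an unadjusted p under 0.05, against 7.94% of all genes. The median size of the differences, whatever their sign, was 0.16 with 9 arrays and 0.12 without OV replicate 3, against 0.19 and 0.11 over all genes; the plot of differences by role shows both sets of values.

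**Figure D1:**
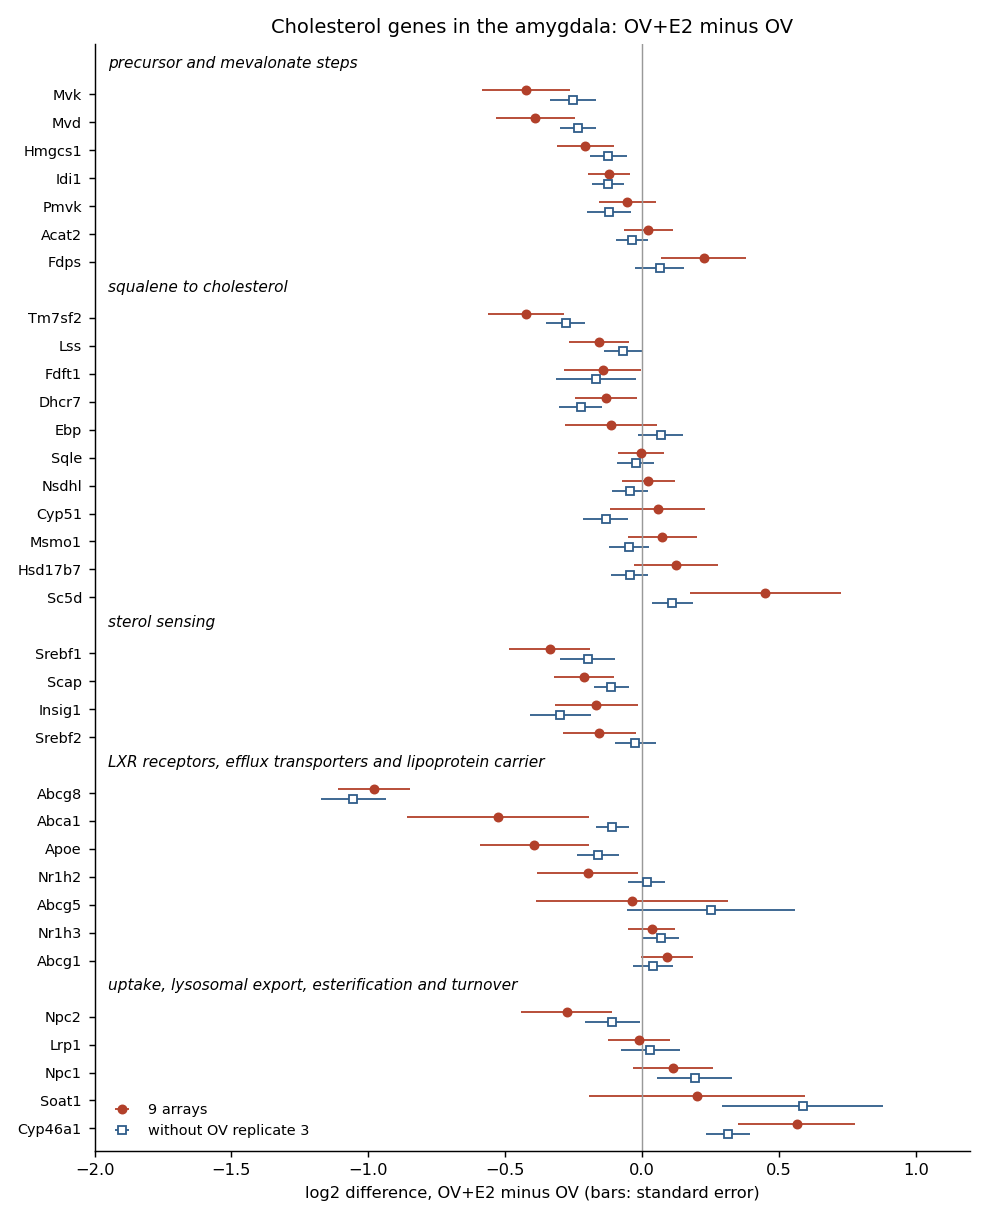
Log2 difference in signal, OV+E2 minus OV (x axis), for the brightest probe of each of the 34 genes, grouped by role, with all 9 arrays (filled circles) and without OV replicate 3 (open squares). Bars are standard errors of the limma fit. Abcg8 lay near −1 both ways, at −0.98 and −1.05, and Abca1 at −0.53 with 9 arrays and −0.11 without OV replicate 3.

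The route from acetyl-CoA to farnesyl diphosphate was represented by 7 genes, 5 of them lower in OV+E2, with a median difference of −0.12 with and without OV replicate 3. Mvk, whose kinase phosphorylates mevalonate, had signals of −0.44, −0.45, −0.61, −0.58 and −0.44 in OV+E2 rats, against −0.14, −0.20, 0.43 and −0.41 in OV rats. The groups did not overlap, the lowest OV rat lying just above the highest OV+E2 rat. The difference was −0.42 (SE 0.16, n = 5 and 4, adjusted p = 0.418), and without OV replicate 3 it was −0.25 (SE 0.08). Mvd, which encodes the decarboxylase that turns mevalonate diphosphate into the first isoprene unit, had signals of 1.59, 1.53, 1.42, 1.49 and 1.53 in OV+E2 rats, against 1.80, 1.79, 2.37 and 1.66 in OV rats. All OV+E2 rats lay below all OV rats. Its difference was −0.39 (SE 0.15, adjusted p = 0.410), and −0.23 (SE 0.07) without OV replicate 3. With slide as a block the differences were −0.34 for Mvk and −0.33 for Mvd. Within slide 1 they were −0.47 and −0.42, and within slide 2 −0.13 and −0.18, where 1 OV rat stood against 3 OV+E2 rats.

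The other 5 genes of this route were Acat2, Hmgcs1, Pmvk, Idi1 and Fdps, which encode a thiolase that joins acetyl-CoA units, HMG-CoA synthase, phosphomevalonate kinase, isopentenyl diphosphate isomerase and farnesyl diphosphate synthase. Their differences ranged from −0.21 for Hmgcs1 to 0.23 for Fdps, and from −0.12 to 0.07 without OV replicate 3. Idi1, named here after its values were seen, had 2.13, 2.14, 2.12, 2.06 and 2.06 in OV+E2 rats, against 2.27, 2.24, 2.21 and 2.16 in OV rats. The groups did not overlap, yet the difference was only −0.12 (SE 0.08, adjusted p = 0.521), and OV replicate 3 lay among the other OV rats. Of the 6 probes named for Acat2 5 were tested, and 1 of these 5 carries a file coordinate on chromosome 11 although the gene lies on chromosome 1.

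The probes behind the differences of Mvk, Mvd, Tm7sf2 and Cyp46a1 are shown because each value rests on 1 stretch of 60 bases; each is printed 5′ to 3′, with AATAAA, the letters of the usual polyadenylation signal, in capitals where present. Those letters occur in 10 of the 54 probes of the set and in 9.04% of all probes. In rat build rn4 the files place the Mvd probe at chr19:52722404-52722463, the Tm7sf2 probe at chr1:208700771-208700830 and the Cyp46a1 probe at chr6:132731264-132731323; the files give the Mvk probe no position. Whether a probe lies in coding sequence is not given in the files.
Mvk: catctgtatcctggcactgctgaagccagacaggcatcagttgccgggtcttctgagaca
Mvd: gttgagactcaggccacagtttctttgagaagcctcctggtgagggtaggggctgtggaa
Tm7sf2: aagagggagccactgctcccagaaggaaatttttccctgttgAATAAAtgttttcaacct
Cyp46a1: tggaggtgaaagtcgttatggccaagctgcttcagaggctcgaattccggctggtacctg

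From squalene to cholesterol there were 11 genes, 6 of them lower, with a median difference near 0 (−0.0033). Without OV replicate 3, 9 of the 11 were lower and the median was −0.05. Tm7sf2 encodes a reductase that saturates the sterol ring after lanosterol is demethylated. Its signals were 0.72, 0.77, 0.60, 0.58 and 0.58 in OV+E2 rats, against 0.94, 0.98, 1.51 and 0.87 in OV rats. Every OV rat was above every OV+E2 rat. The difference was −0.42 (SE 0.14, n = 5 and 4, adjusted p = 0.353), and −0.28 (SE 0.07) without OV replicate 3. Taking slide as a block gave −0.35, and the values were −0.39 within slide 1 and −0.28 within slide 2.

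Sc5d, the sterol desaturase near the end of the route, showed how far 1 array could carry a value. Its brightest probe had 0.97, 0.88, 0.90, 0.91 and 0.93 in OV+E2 rats, against 0.97, 0.74, −0.56 and 0.71 in OV rats. Only OV replicate 3 lay far from the rest. The difference was 0.45 (SE 0.28, adjusted p = 0.519) with 9 arrays and 0.11 (SE 0.07) without that rat. A second Sc5d probe gave 0.85 with 9 arrays and 0.04 without it, OV replicate 3 standing at −2.75 where the other OV rats lay between 0.34 and 0.57.

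The remaining 9 enzymes were Fdft1 (squalene synthase), Sqle (squalene epoxidase), Lss (lanosterol synthase), Cyp51 (lanosterol demethylase), Msmo1, Nsdhl and Hsd17b7 (removal of ring methyl groups), Ebp (sterol isomerase) and Dhcr7 (the reductase that completes cholesterol). Their differences ranged from −0.16 for Lss to 0.12 for Hsd17b7, and from −0.22 for Dhcr7 to 0.07 for Ebp without OV replicate 3. Dhcr7 and the sensor gene Insig1 were singled out after their values were seen, because leaving out OV replicate 3 separated their groups. Dhcr7 had 1.08, 1.03, 1.08, 1.01 and 0.99 in OV+E2 rats, against 1.41, 1.27, 0.89 and 1.10 in OV rats, where OV replicate 3 was the lowest of the 9. Its difference was −0.13 (SE 0.11, adjusted p = 0.565) with 9 arrays, and −0.22 (SE 0.08, adjusted p = 0.259) without it. Over the 18 enzymes of synthesis together, 11 were lower with 9 arrays and 15 without OV replicate 3, with medians of −0.08 and −0.09.

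By their brightest probes the 4 genes of sterol sensing were all lower in OV+E2, with a median of −0.19, and of −0.15 without OV replicate 3. Srebf1, which encodes SREBP-1, the isoform tied more to fatty acid synthesis, had 2.67, 2.85, 2.49, 2.43 and 2.51 in OV+E2 rats, against 2.79, 2.77, 3.35 and 2.80 in OV rats. The groups overlapped through OV+E2 replicate 2, and OV replicate 3 stood above all. The difference was −0.34 (SE 0.15, n = 5 and 4, adjusted p = 0.481), −0.20 (SE 0.10) without OV replicate 3 and −0.26 with slide as a block. A second Srebf1 probe gave −0.10 with 9 arrays and −0.18 without OV replicate 3, close to the first probe without that rat.

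Scap, the escort protein that carries SREBPs to be cleaved, had 2.33, 2.31, 2.36, 2.30 and 2.36 in OV+E2 rats, against 2.51, 2.50, 2.84 and 2.32 in OV rats. OV replicates 1, 2 and 3 were above all OV+E2 rats, while OV replicate 5 lay within their range. The difference was −0.21 (SE 0.11, adjusted p = 0.510), −0.11 (SE 0.06) without OV replicate 3, −0.30 within slide 1 and 0.02 within slide 2. Insig1, which holds the complex back when sterol is plentiful, had 3.29, 3.28, 3.24, 2.84 and 3.09 in OV+E2 rats, against 3.44, 3.49, 2.92 and 3.40 in OV rats. Without OV replicate 3 all OV+E2 rats were below the other OV rats. The difference was −0.17 (SE 0.15, adjusted p = 0.580) and without OV replicate 3 −0.30 (SE 0.11, adjusted p = 0.285), while within slide 1 it was −0.0009 and within slide 2 −0.35. A second Insig1 probe went the other way with 9 arrays, at 0.45, and gave −0.06 without OV replicate 3. Srebf2, the isoform tied to cholesterol synthesis and the last gene of this group, differed by −0.16 with 9 arrays and −0.02 without OV replicate 3.

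Among the LXR receptors, efflux transporters and the lipoprotein carrier, 5 of 7 genes were lower, with a median of −0.20, and 3 of 7 without OV replicate 3, with a median of 0.02. Abcg8 encodes one of the 2 subunits of the sterol export pump known best from liver and intestine, where it drives plant sterols and cholesterol into bile and gut. Its signals were −1.80, −1.70, −1.60, −1.78 and −1.93 in OV+E2 rats, against −0.61, −0.53, −1.01 and −0.98 in OV rats. The gap between the groups was wider than the range of either group, and OV replicate 3 was the lowest of the OV rats, close to OV replicate 5. The mean was −1.76 ± 0.12 in OV+E2 rats and −0.78 ± 0.25 in OV rats (SD, n = 5 and 4), so that OV+E2 rats had 0.507 times the signal of OV rats. Without OV replicate 3 the difference was −1.05 (SE 0.12, adjusted p = 0.0922). It was −0.94 with slide as a block, −1.04 within slide 1 and −0.79 within slide 2. The authors' deposited values gave −1.16 (SE 0.13, adjusted p = 0.0275), which passed, and −1.05 (adjusted p = 0.0861) without OV replicate 3, which did not.

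Abcg5 encodes the partner subunit, and both half-transporters are needed for export. It was singled out as this partner, with its values known. It was dim, well above background on all 5 OV+E2 arrays and on 2 of 4 OV arrays. Its signals were −4.65, −4.01, −4.26, −3.88 and −4.28 in OV+E2 rats, against −5.28, −4.21, −3.32 and −3.91 in OV rats. The OV rats spanned the whole range of the OV+E2 rats, with OV replicate 1 the lowest and OV replicate 3 the highest. The difference was −0.04 (SE 0.35, adjusted p = 0.963), with 0.25 (SE 0.31) without OV replicate 3 and −0.33 after background correction by normexp. The standard error was 0.35 for Abcg5, against 0.13 for Abcg8. A difference would have to lie well beyond that standard error to stand out, so these arrays could miss a sizeable change in Abcg5.

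The probes of this pair are shown because Abcg8 rests on 1 of its 2 probes. The tested Abcg8 probe lies at chr6:8082073-8082132 of rn4 and the other at chr6:8083212-8083271, farther along the same transcript, where it was well above background on 0 of 9 arrays. The Abcg5 probe lies at chr6:8028067-8028126. AATAAA is again in capitals.
Abcg8 tested probe: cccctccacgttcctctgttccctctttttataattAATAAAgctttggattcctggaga
Abcg8 probe below background: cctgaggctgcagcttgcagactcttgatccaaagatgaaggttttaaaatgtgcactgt
Abcg5: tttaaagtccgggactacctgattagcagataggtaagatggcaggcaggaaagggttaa

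**Figure D2:**
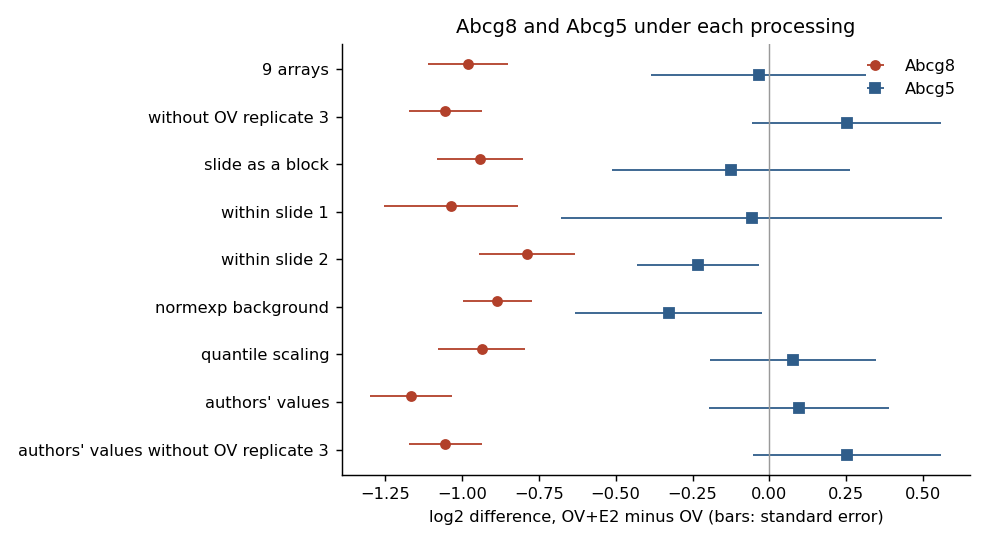
Log2 difference in signal, OV+E2 minus OV (x axis), of Abcg8 (circles) and Abcg5 (squares) under 9 ways of processing or choosing the arrays, with standard errors of the limma fit as bars. Abcg8 lay between −1.16 and −0.79 throughout, and Abcg5 between −0.33 and 0.25, on both sides of 0.

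The 2 genes lie head to head. In RefSeq's annotation of build GRCr8 their starts are 206 bases apart on chromosome 6, and the windows from 250 bases before to 50 after each start share 295 of 300 bases. The window of Abcg8, at chr6:15717681-15717980 on the minus strand, is shown because it is also nearly all of that of Abcg5, and that of Mvk, at chr12:47819454-47819753 on the minus strand, as the enzyme promoter with the most CCAAT letters among those of Mvk, Mvd and Tm7sf2. Capitals mark CCAAT on either strand.
Abcg8 promoter: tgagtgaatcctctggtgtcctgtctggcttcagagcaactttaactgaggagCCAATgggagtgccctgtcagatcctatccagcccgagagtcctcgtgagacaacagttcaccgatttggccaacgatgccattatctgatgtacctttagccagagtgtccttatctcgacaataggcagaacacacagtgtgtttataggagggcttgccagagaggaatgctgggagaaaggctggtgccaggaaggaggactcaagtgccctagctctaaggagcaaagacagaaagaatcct
Mvk promoter: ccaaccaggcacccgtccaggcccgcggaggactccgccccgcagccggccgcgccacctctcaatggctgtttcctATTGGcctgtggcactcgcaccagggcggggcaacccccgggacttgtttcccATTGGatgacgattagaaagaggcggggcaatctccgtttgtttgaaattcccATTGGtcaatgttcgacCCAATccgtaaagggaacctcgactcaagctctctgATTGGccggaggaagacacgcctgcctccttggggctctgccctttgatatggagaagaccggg

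Of the 34 genes 30 had a promoter window in RefSeq; Abcg1, Fdft1, Pmvk and Sqle did not. Searched on both strands, CCAAT, the box bound by NF-Y, stood in 21 of 30 windows and in 37.7% of all 27457, and GGGCGG, the box bound by Sp1, in 23 of 30 and in 34.9%. The letters TCACNCCAC, after the sterol element bound by SREBPs, were in 0 of 30 windows and in 1.13% of all. The estrogen element, GGTCA and TGACC with 3 bases between, was in 0 of 30 and in 0.0255% of all; its first 5 letters alone, GGTCA, were in 12 of 30 and in 40.2%. The LXR element, AGGTCA and a second AGGTCA with 4 bases between, was in 0 of 30 and in 0.00364% of all. GGTCA is part of the estrogen and LXR elements, so these matches overlap. A window without the letters says nothing of sites elsewhere.

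Apoe, the lipoprotein of the astrocyte, had 8.05, 8.15, 8.002, 8.03 and 7.92 in OV+E2 rats, against 8.26, 8.25, 9.12 and 8.07 in OV rats. The groups overlapped at OV replicate 5 and OV replicate 3 stood above all others. The difference was −0.39 (SE 0.20, adjusted p = 0.504), −0.16 (SE 0.08) without OV replicate 3, and 0.05 after quantile normalization, the one scaling that turned its sign. Abca1, which hands cholesterol to apolipoproteins, was singled out after its values were seen. It had −2.33, −2.35, −2.41, −2.32 and −2.44 in OV+E2 rats, against −2.31, −2.24, −0.59 and −2.24 in OV rats, where OV replicate 3 alone lay far above. The difference was −0.53 (SE 0.33, adjusted p = 0.520) and −0.11 (SE 0.06) without that rat. The LXR genes Nr1h3 and Nr1h2 and the transporter Abcg1, which passes cholesterol to formed particles, had differences between −0.20 and 0.09, and between 0.02 and 0.07 without OV replicate 3.

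**Figure D3:**
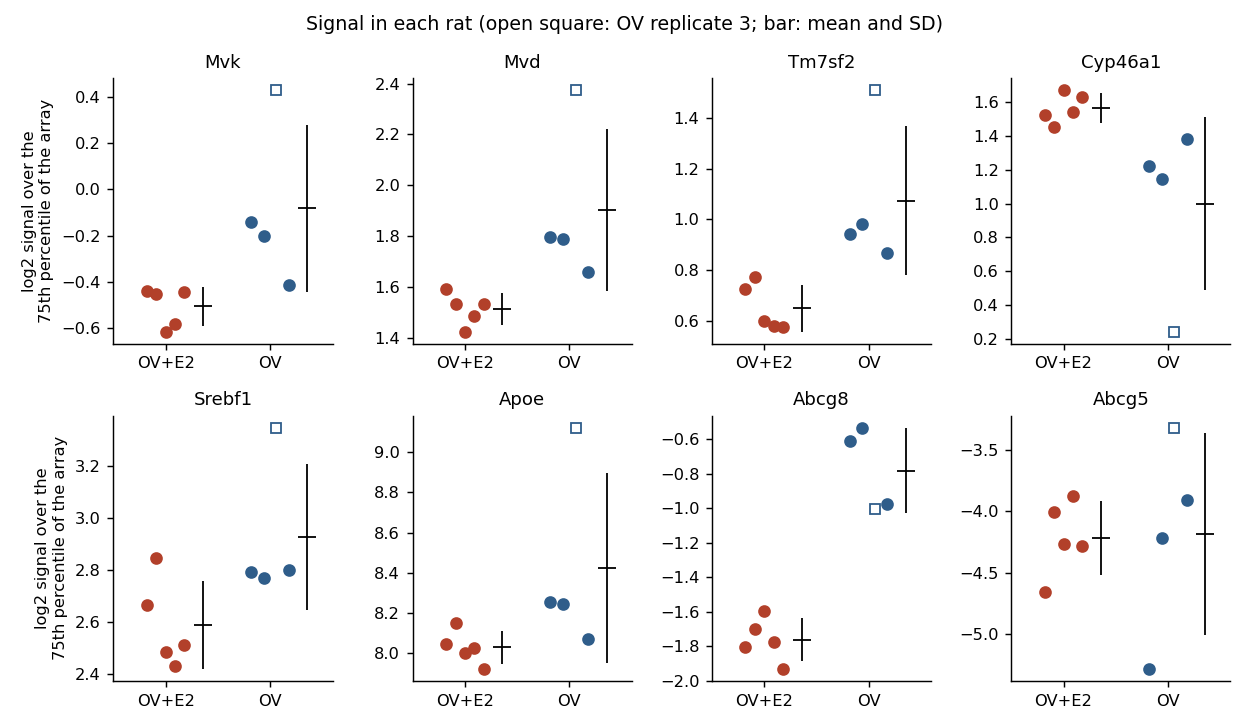
Log2 signal over the 75th percentile of the array (y axis) of 8 genes in each of 5 OV+E2 rats (left) and 4 OV rats (right), OV replicate 3 as an open square, with the mean and SD as a bar. Mvk, Mvd, Tm7sf2, Cyp46a1 and Abcg8 did not overlap between groups; OV replicate 3 was the highest of the 9 rats for Mvk, Mvd, Tm7sf2, Srebf1, Apoe and Abcg5 and the lowest for Cyp46a1.

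For uptake, lysosomal export, esterification and turnover 3 of 5 genes were higher in OV+E2, with a median of 0.11, and 4 of 5 without OV replicate 3, with a median of 0.19. Cyp46a1, the hydroxylase of neurons that turns cholesterol into an oxysterol able to leave the brain, had 1.53, 1.45, 1.67, 1.54 and 1.63 in OV+E2 rats, against 1.22, 1.15, 0.24 and 1.38 in OV rats. All OV+E2 rats were above all OV rats. The difference was 0.57 (SE 0.21, n = 5 and 4, adjusted p = 0.417) and 0.31 (SE 0.08, adjusted p = 0.177) without OV replicate 3. It was 0.47 with slide as a block, 0.62 within slide 1 and 0.23 within slide 2.

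Npc2, a lysosomal carrier of cholesterol, had 1.95, 1.98, 1.80, 1.79 and 1.86 in OV+E2 rats, against 2.22, 1.82, 2.65 and 1.91 in OV rats. The groups overlapped. Its difference was −0.28 (SE 0.17, adjusted p = 0.517), and −0.11 (SE 0.10) without OV replicate 3. Npc1, its partner in the lysosomal membrane, and Lrp1, a receptor for particles with apolipoprotein E, had differences of 0.11 and −0.01, and of 0.19 and 0.03 without OV replicate 3. Soat1, which stores cholesterol as esters, was singled out after its values were seen: it was dim, at −3.99, −4.87, −3.84, −3.42 and −3.66 in OV+E2 rats, against −4.58, −4.38, −3.00 and −4.67 in OV rats. Its difference was 0.20 (SE 0.40, adjusted p = 0.793), and it was −0.44 within slide 1, where OV replicate 3 lay, and 1.03 within slide 2. Without OV replicate 3 it was 0.59 (SE 0.29).

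A wider list of 54 genes of sterol and SREBP-driven lipid metabolism held 50 tested genes, of which 22 were higher, 28 lower and 0 passed the adjusted threshold (median −0.01). An unadjusted p under 0.05 was reached by 4 of the 50, where 10.4% of all genes reached it. Apoc1, an apolipoprotein made beside Apoe, differed by −0.32 (SE 0.13, adjusted p = 0.438) and a second probe by −0.27. Scd, a desaturase of fatty acids that SREBP-1 raises, differed by −0.23 (SE 0.10, adjusted p = 0.475). Stard5, a carrier of sterols in the cytosol, had −1.85, −1.68, −1.63, −1.78 and −1.75 in OV+E2 rats, against −1.89, −1.91, −2.04 and −2.14 in OV rats, a difference of 0.25 (SE 0.09, adjusted p = 0.407) without overlap. Without OV replicate 3 these differences were −0.21 for Apoc1, −0.16 for Scd and 0.24 for Stard5. After background correction by normexp Stard5 differed by 0.05.

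Several probes of 1 gene gave a direct reading of how well a value held within these arrays. Of the 34 genes 13 had more than 1 tested probe, and in 7 of the 13 the probes disagreed in sign with 9 arrays, against 3 without OV replicate 3. The range between a gene's probes had a median of 0.23 log2 units with 9 arrays and 0.07 without OV replicate 3, and it was smaller without that rat in all 13 genes. Abca1 had the widest range with 9 arrays, its probes at −0.53 and 0.27 and at −0.11 and −0.01 without OV replicate 3. Insig1 came next with 9 arrays, at −0.17 and 0.45, and stood at −0.30 and −0.06 without that rat. The 5 Acat2 probes had the widest range when OV replicate 3 was left out, 0.35, from −0.34 to 0.01. The probe at −0.34 was dim, with a mean of −4.46 in both groups, and is named for a different transcript from the other tested ones. The probe at 0.01 is the one with the coordinate on chromosome 11. Whether the 5 probes read the same transcript was not tested. OV replicate 3 differed from the mean of the other OV rats by −3.24 to 1.67 over the 51 probes, with a median size of 0.53, while in the authors' deposited values the same quantity ran from −0.68 to 0.62 with a median size of 0.08. Spots of the same probe within an array mostly agreed far more closely. For the 7 probes printed on more than 2 spots the SD, as the median over the 9 arrays, was 0.04 to 0.07. The spot SD on the array of OV replicate 3 was not read separately. Lss carries the same sequence under 2 probe names, shown as the closest technical repeat in the set, and these differed between groups by −0.02 and −0.03. It lies at chr20:12507646-12507705 of rn4.
Lss, both probes: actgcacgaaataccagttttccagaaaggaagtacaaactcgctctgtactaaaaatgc

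**Figure D4:**
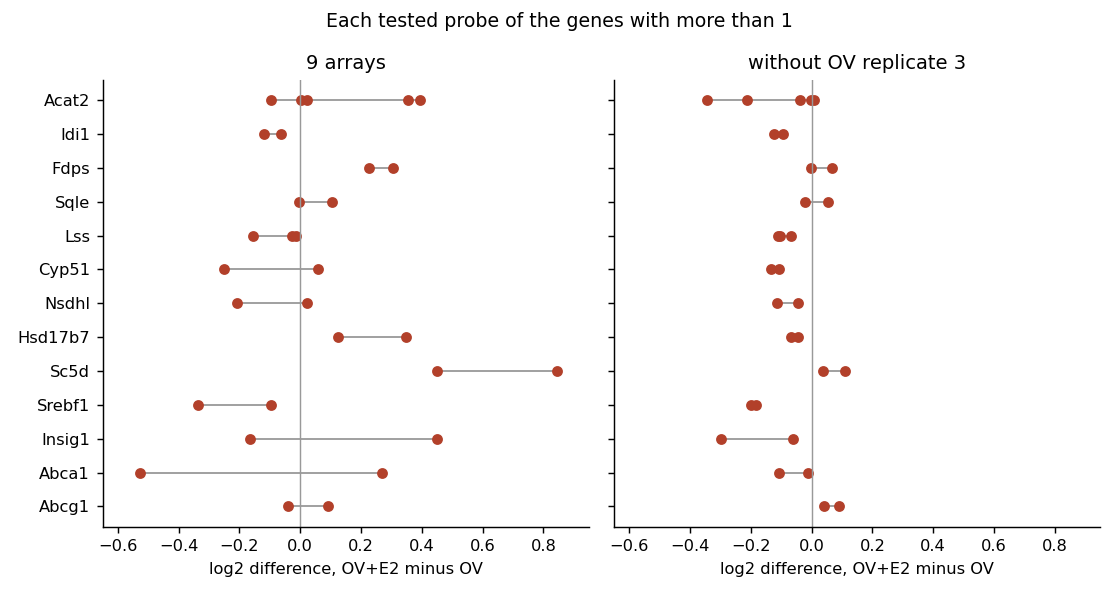
Log2 difference in signal, OV+E2 minus OV (x axis), of each tested probe (circles, joined by a line for each gene) of the 13 genes with more than 1, with 9 arrays (left) and without OV replicate 3 (right). The probes of Abca1 spanned 0.80 log2 units with 9 arrays and 0.10 without OV replicate 3.

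The labelled tissue and the other cell types that a dissection can hold were read from marker lists. Neuron, astrocyte and oligodendrocyte markers were tested throughout the lists, 9 of 9, 9 of 9 and 10 of 10. Myelin holds most brain cholesterol, so oligodendrocyte markers are set beside the synthesis genes: 9 of 10 were lower in OV+E2, with a median difference of −0.31, and −0.16 without OV replicate 3. Their summed signal was 582 to 769 times the 75th percentile in OV+E2 rats and 689 to 1638 in OV rats, the top value being that of OV replicate 3, with 851 the next. For the 18 synthesis enzymes it was 150.3 to 163 in OV+E2 rats and 159 to 173 in OV rats. Neuron markers, set beside Cyp46a1, were higher in 8 of 9 genes with a median of 0.30, and in 6 of 9 with a median of 0.15 without OV replicate 3, and summed to 184 to 196 in OV+E2 rats and 136 to 189 in OV rats. Astrocyte markers, set beside Apoe, were lower in 6 of 9 with a median of −0.01, and in 7 of 9 with a median of −0.08 without OV replicate 3. At an unadjusted p under 0.05 they numbered 0 with 9 arrays and 3 without that rat, 2 lower and 1 higher. At that level the neuron list held 2 genes both ways, 1 higher and 1 lower. The oligodendrocyte list held 1 lower gene both ways. Over all genes the shares were 10.4% with 9 arrays and 14.2% without OV replicate 3. Astrocyte markers summed to 454 to 553 in OV+E2 rats and 460 to 594 in OV rats, with 559 the highest of the OV rats other than replicate 3. No marker of these 3 lists was below background on all arrays, and their part in the results was not tested.

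Of the markers of the amygdala and its neighbours 7 were tested, all well above background on 9 of 9 arrays, and Rspo2, well above background on 3, was not. Their differences ran from −1.08 for Avp, which encodes vasopressin, to 0.85 for Prkcd, a kinase gene that marks cells of the central amygdala, with a median of 0.13, and of 0.14 without OV replicate 3. At an unadjusted p under 0.05 the list held 2 lower genes, Avp and the oxytocin gene Oxt (−0.82). With slide as a block it held 4 genes, 2 higher and 2 lower. The shares over all genes were 10.4% with 9 arrays and 7.94% with slide as a block. The summed signal of the tested markers was 30.5 to 53.5 in OV+E2 rats and 45.0 to 77.7 in OV rats, OV replicate 3 the highest, with 68.5 the next.

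Microglia markers were lower in OV+E2 in 4 of 8 genes, with a median of −0.10, and in 5 of 8 with a median of −0.17 without OV replicate 3. An unadjusted p under 0.05 was reached by 3 of them, all lower, and by 2 without that rat. Of all genes 10.4% reached it with 9 arrays and 14.2% without OV replicate 3. Microglia markers summed to 42.2 to 47.1 in OV+E2 rats and 45.0 to 65.4 in OV rats, OV replicate 3 the highest, with 52.9 the next. Blood markers were lower in 3 of 5 genes, with a median of −0.22, and in 5 of 5 with the same median without OV replicate 3, and 3 reached an unadjusted p under 0.05 both ways. With slide as a block 2 reached it, against 7.94% of all genes. After normexp 1 reached it, where 2532 of 30215 tested probes did. With the authors' values 0 reached it, against 19.3% of all genes, and the median was −0.13. The median over the blood markers in each rat, each gene as its log2 difference from its mean over the 9 rats, ran from −0.29 to 0.03 in OV+E2 rats and from 0.11 to 0.30 in OV rats, without overlap. Their summed signal was 3.74 to 5.17 in OV+E2 rats and 2.74 to 5.67 in OV rats, OV replicate 3 the lowest, with 4.89 the next. Endothelium markers, of which 4 were tested, had a median of −0.26, and of −0.13 without OV replicate 3, and summed to 9.38 to 11.3 in OV+E2 rats and 10.6 to 17.9 in OV rats, with 11.9 the highest of the others when OV replicate 3 is left out. The 5 markers of oligodendrocyte precursors had a median of −0.05, and of 0.06 without OV replicate 3, and summed to 19.5 to 25.7 in OV+E2 rats and 21.3 to 25.5 in OV rats. With 9 arrays or without OV replicate 3, none of these lists or that of the amygdala markers held a gene past the adjusted threshold. With the authors' values 1 oligodendrocyte precursor gene passed in limma (adjusted p = 0.0428), as did 69 probes of the array (0.23%). The part of these lists in the results was not tested.

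**Figure D5:**
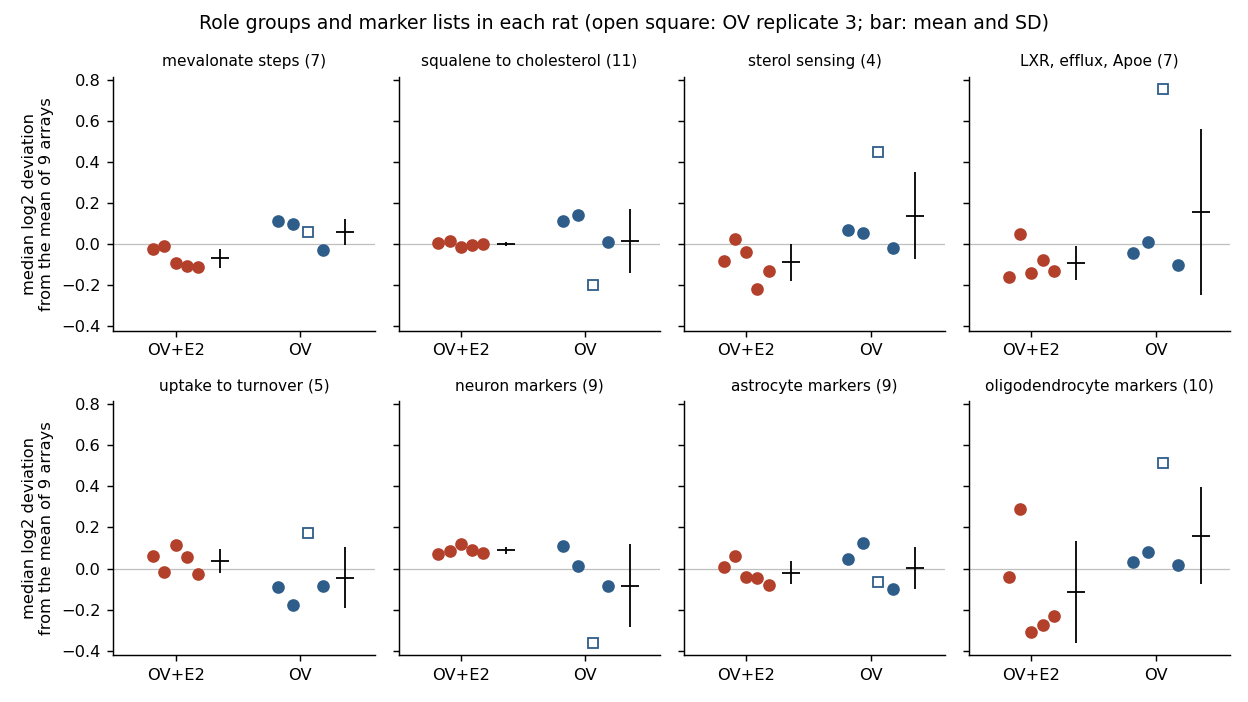
Median over the genes of a list of each gene's log2 signal minus its mean over 9 arrays (y axis), in 5 OV+E2 rats (left) and 4 OV rats (right) for the 5 role groups and 3 marker lists, with the number of genes in brackets, OV replicate 3 as an open square and the mean and SD as a bar. OV replicate 3 stood at 0.76 for the LXR and efflux group and at −0.36 for neuron markers; the other 8 arrays stayed between −0.22 and 0.14 for each of the role groups.

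Choroid plexus and liver lists were read as well. Choroid plexus markers were higher in OV+E2 in 7 of 7 genes, with a median of 0.74, none at an unadjusted p under 0.05 (median 1.00 without OV replicate 3), and their summed signal ran from 256 to 484 in OV+E2 rats and from 13.6 to 754 in OV rats, the top value being that of OV replicate 3, with 347 the next. Abcg8 is known from liver, and of the 7 liver markers Apob, Fgb and Cyp2e1 were well above background on 0 of 9 arrays. The tested liver markers were Alb, Serpina1, Ahsg and Ttr, and Ttr is also the main choroid plexus marker. In OV+E2 3 of the 4 were higher and Ahsg lower. An unadjusted p under 0.05 in limma was reached by 2 of the 4, both higher, with and without OV replicate 3. Of all genes 10.4% and 14.2% reached it. The groups did not overlap for 3 of the 4 both ways, against 7.04% and 10.8% of all genes. After normexp 0 of the 4 reached that p, where 2532 of 30215 tested probes did. The summed signal of the tested liver markers was 258 to 476 in OV+E2 rats and 17.98 to 757 in OV rats. OV replicate 3 was again at the top, with 347 the next. Both lists hold Ttr, and their sums lay close together. Abcg8 was lower in OV+E2. With 9 arrays the median difference was 0.74 for the choroid plexus list and 0.56 for the liver list. After normexp it was 0.48 for choroid plexus and −0.0017 for liver, where 2 genes were higher and 2 lower. The part of both lists in the result of Abcg8 was not tested.

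In the authors' deposited values, where the column of OV replicate 3 lies close to the other OV columns, 22 of the 34 genes were again lower, with a median of −0.07. An unadjusted p under 0.05 was found for 9 genes, 7 lower and 2 higher, against 19.3% of all genes. Abcg8 was the only one of the 34 to pass the adjusted threshold, which 69 probes of the array passed (0.23%).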

How the data were processed

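Amygdala RNA of 5 OV+E2 and 4 OV rats was measured on 1 array each. The values are intensities: per the file headers, the authors' deposited scanner files hold a background-subtracted processed signal from Feature Extraction 10.7.3.1 (protocol GE1_107_Sep09, build rn4), while the submitters' processing notes name version 9.1. The log2 of the authors' deposited intensities served as an alternative. The sources used here do not give the scaling of those intensities.

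Control spots (4259 of 62976) and outlier spots were left out and spots of a probe averaged. Log2 signals were set against the 75th percentile of each array. A probe was tested if at least 4 of 9 arrays had it well above background. OV+E2 was compared with OV by limma 3.58.1 (lmFit, eBayes) in R 4.3.3 (files read with the package data.table, version 1.17.8), group as the only term and Benjamini-Hochberg adjustment over all 30215 tested probes; an adjusted p under 0.05 was called. A gene is represented by its brightest probe. Differences were printed singly for genes with an unadjusted p under 0.05, for the 2 members of smallest p in each role group and for further probes of these genes; others named singly are said to be chosen later. The result of 1 gene of the wider list is not reported here. The members and gene lists were chosen with earlier results of these data known. The methods were tested on simulated data. The number of arrays limits the precision.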

Additional observations from a re-analysis of the deposited data

Results flagged for a closer look

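In 28 groups of 4 or 5 rats (14 named genes in OV+E2 and in OV), 1 held a rat far from the others: for Srebf1 in OV, replicate 3 had the highest signal, 3.35 against 2.80 for the nearest rat, a gap of 0.941 of the whole range of the group. Chance alone places about 1 in 20 such groups past the limit used. It was the array that stood apart over all probes.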

How the results depend on the processing

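For the 14 genes named by rule, 2 of the alternatives turned a direction: Apoe stood at 0.0535 after quantile normalization and Scap at 0.0192 within slide 2. Abcg8 was lower under all 24 alternatives, from −1.16 to −0.79 (adjusted p 0.0104 to 0.643, leaving out the fits within 1 slide, where it was 0.859 in slide 1 and 0.0931 in slide 2). The count of the 34 genes at an unadjusted p under 0.05, 5 in the report, was 3 with median scaling, 2 with slide as a block, 9 with the authors' values, 8 with these and slide as a block, 13 with array weights, and 8 with slide as a block and without OV replicate 3. The number of all probes at that level moved too. Of 30215 probes it was 3134 in the report, 2931 with median scaling, 2306 with slide as a block and 7633 with array weights. It was 4728 with slide as a block and without OV replicate 3. Of 30000 probes it was 5655 with the authors' values and 5614 with these and slide as a block. Leaving out each rat in turn, the count of the 34 genes ran from 2 to 8 and the median from −0.127 to −0.058. That count was 2 without OV+E2 replicate 3 and 8 without OV replicate 5, where 2213 and 3738 of all probes stood at that level. Genes of the set passing the adjusted threshold, 0 in the report, numbered 1 with the authors' values and 1 with these and slide as a block (Abcg8 in both, adjusted p = 0.0275 and 0.0462), and 3 with array weights (Abcg8, Tm7sf2 and Cyp46a1). Over all probes the count, 0 in the report, was 69 with the authors' values, 26 with these and slide as a block, 1 with these and without OV replicate 3, 1294 with array weights, 9 with no filter, 1 with slide as a block and without OV replicate 3, and 0 to 1 when leaving out each rat in turn (1 without OV replicate 1 and 1 without OV replicate 3). The fits within 1 slide are left out of this count, as OV replicate 5 was the only OV rat on slide 2. The median of the set, −0.12 against 0.0108 for all genes in the report, was −0.0116 with median scaling, against 0.116 for all genes. Median scaling shifts all probes of an array alike, so it moved the difference of each gene of the set by the same amount. After normexp with its offset of 50 the median of the set was −0.0447, above that of all genes, −0.0851. Without a filter the median of all probes was −0.126. The cause of the shifts after normexp and without a filter was not tested. With the replicate block, which leaves out OV+E2 replicate 4, 1 gene of the set had an unadjusted p under 0.05, as did 1967 of 30215 probes. Abcg8 stood at −0.98 in that fit. The numbers gave no clear pairing of the rats: the deviations of same-numbered rats correlated at 0.17, −0.076, −0.0109 and 0.105, against −0.29 to 0.122 for other numbers. So few pairs cannot tell whether the rats were paired. The 2 alternatives that combine leaving out OV replicate 3 with slide as a block or with the authors' values were chosen after seeing the data. Of the results that answer the comparison, 90 values stayed close to the report and 22 moved, and no alternative called a gene of the wider list. Abcg5 was well above background on 7 of 9 arrays.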
